A study of Mus musculus with 8 samples.

Results

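The barcodes described here carried little RNA yet kept the mitochondrial share and the pigment-cell transcripts of B16F10 melanoma cells. They were chosen from measured values: a barcode had to show 200 to 5000 genes, fewer than 3000 unique molecular identifiers (UMIs, 1 per captured RNA molecule), 2 to 7.5% of UMIs in mitochondrially encoded (mt-) genes and at least 0.3% in the sum of Mlana, Pmel, Dct, Tyr and Tyrp1. Of 41925 barcodes in 8 tumours, 1611 met these limits and are called low-RNA melanoma barcodes. They were compared with 21418 barcodes of the same tumours that had at least 4000 UMIs and met the same gene, mt- and melanoma limits, here called usual-RNA barcodes.

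The study asked what host ATF4, a stress-response transcription factor, does in the stroma of a growing tumour, and used 10x Genomics 3′ single-cell RNA sequencing of large (300 mm3) B16F10 tumours. B16F10 is a pigmented mouse melanoma line, and 4 tumours grew in Atf4wt/wt hosts and 4 in Atf4D/D hosts, all 12 weeks old by the labels. All hosts carried Rosa26::CreERT2 and had received tamoxifen, so that Cre acted throughout the host in both groups, and only Atf4D/D hosts had floxed Atf4 to lose. The 4 Atf4wt/wt hosts were 2 males and 2 females, and the 4 Atf4D/D hosts were 3 males and 1 female. The injected melanoma cells came from 1 line with intact Atf4 in both groups, so a genotype difference in melanoma barcodes is a difference between cells grown in different hosts. Each tumour was 1 library, with 4231 to 8696 barcodes and 37283598 to 74942137 UMIs.

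Melanoma cells make melanin in melanosomes. Tyr, Tyrp1 and Dct encode its enzymes, while Pmel and Mlana encode melanosome structural proteins, and the transcription factors Mitf and Sox10 keep the program on. In droplet data a barcode with few UMIs can be a small or resting cell, a damaged cell, a cell fragment, or a droplet with mostly free RNA, and these cannot be told apart from its total alone. Loss of cytoplasm commonly raises the mt- share or leaves nuclear RNA such as Malat1, and for this reason barcodes with a usual mt- share are set apart here.

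Of the 7701 barcodes with fewer than 3000 UMIs, 7651 had 200 to 5000 genes. Their mt- share was below 2% in 1679, above 7.5% in 3643 and between these limits in 2329, and 718 of the last fell below the melanoma limit. The remaining 1611 are the barcodes described here. They had 501 to 2997 UMIs (median 1614) and a median of 918 genes, against medians of 10646 UMIs and 3259 genes in usual-RNA barcodes. The median mt- share was 4.91% against 5.64%, and the median share of the 5 melanoma genes was 1.22% against 1.32%. These values were fixed in part by the rule and describe the groups only.

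The limits cut through a continuous range. The 50 barcodes just under 3000 UMIs held 3021 CPM (counts per 1000000 UMIs) of Gm42418 and 12733 CPM of Malat1, and the 45 just outside held 2118 and 7001 CPM. At the melanoma limit, 71 low-RNA barcodes lay at 0.3 to 0.4% and 110 lay just outside, at 0.2 to 0.3%, and 30 and 77 of these carried at least 0.3% of UMIs in host-cell markers (below). At the lower mt- limit, the 103 barcodes just inside held 26655 CPM of Malat1 and the 135 just outside held 43683 CPM. At the upper mt- limit, the 175 just inside and the 182 just outside held 8533 and 6219 CPM.

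The label of these barcodes as melanoma was checked with 12 melanocyte genes that the rule did not use, among them Mitf, Sox10, Slc45a2, Gpr143 and Gpnmb. All 12 were detected, at a summed 4240 CPM in low-RNA and 3831 CPM in usual-RNA barcodes, and Gpnmb, a melanosome glycoprotein, led in both. They took at least 0.3% of UMIs in 998 of 1611 low-RNA and 14941 of 21418 usual-RNA barcodes. Since the rule selected on genes of the same program, this check does not tell whole cells from fragments or free melanoma RNA. In the 8 tumours Gpnmb ranged from 1605 to 2253 CPM in low-RNA barcodes and from 1495 to 2305 CPM in usual-RNA barcodes, so the populations overlapped fully.

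A small fraction of the low-RNA barcodes also carried markers of host cells. A set of 39 markers of fibroblasts, macrophages, lymphocytes, endothelium, red cells, neutrophils, plasma cells and keratinocytes took at least 0.3% of UMIs in 67 of 1611 low-RNA barcodes (4.16%) and in 92 of 21418 usual-RNA barcodes (0.430%). This cut takes fewer marker UMIs in a shallow barcode, so the shares of the populations are not alike in depth: leaving these barcodes out took the number at 500 to 1000 UMIs from 406 to 369 and that at 2000 to 3000 UMIs from 536 to 528. The 67 had a median melanoma share of 0.444%, near the limit, while the other low-RNA barcodes had 1.25%. Of the 544 low-RNA barcodes with 0.3 to 1% in melanoma genes, 58 carried host markers, and of the 1067 with 1% or more, 9 did. Whether these were host cells with some melanoma RNA, mixed droplets or doublets was not tested. Counts of calls without these barcodes stand beside the gene lists below.

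Macrophage markers were the main host signal. The 7 macrophage genes (Lyz2, C1qa, C1qb, C1qc, Cd68, Adgre1 and Csf1r) summed to 408 CPM in low-RNA and 16.04 CPM in usual-RNA barcodes, and Lyz2, the lysozyme of myeloid cells, gave 650 of the 1077 UMIs. By tumour this sum was 529, 42.4, 110.3 and 373 CPM in Atf4wt/wt replicates 1 to 4 and 127, 1090.1, 157 and 716 CPM in Atf4D/D replicates 1 to 4, so Atf4wt/wt replicate 2 was lowest, Atf4D/D replicate 2 was highest and the genotypes overlapped. The 7 fibroblast genes summed to 153 against 61.9 CPM, led by Col1a1 in low-RNA and by Col3a1 in usual-RNA barcodes. By tumour this sum ran the other way in Atf4D/D replicates 1 (56.3 against 137 CPM) and 4 (113 against 158 CPM). In the other tumours it was higher in low-RNA barcodes. Lymphocyte markers (9.85 against 0.0662 CPM, Cd3e at 0), endothelial markers (14.8 against 2.83 CPM, led by Plvap), red cell markers (2.27 against 0.501 CPM, Hbb-bt and Alas2 at 0 in low-RNA barcodes), neutrophil markers (0.379 against 0.604 CPM, S100a9 and Retnlg at 0) and plasma-cell markers (8.71 against 12.2 CPM, led by Igkc) were minor, and none of the 3 keratinocyte markers had a UMI in low-RNA barcodes. How much of this came from free RNA was not tested, since only barcodes called as cells were analysed here.

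Barcodes can also repeat between libraries. Of the low-RNA barcodes, 15 (0.931%) had a barcode sequence that also occurred in another library, and of the usual-RNA barcodes 205 (0.957%) did, so the shares were close.

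Every tumour held low-RNA melanoma barcodes, at 2.74 to 4.84% of its barcodes. They numbered 323, 131, 163 and 261 in Atf4wt/wt replicates 1 to 4 and 175, 183, 201 and 174 in Atf4D/D replicates 1 to 4. As a share of all barcodes of the tumour this was 3.71, 2.74, 3.85 and 4.84% in Atf4wt/wt and 3.89, 3.92, 3.87 and 3.91% in Atf4D/D. The Atf4D/D values lay inside the Atf4wt/wt range, and the Wilson 95% intervals, which cover counting error only, ran from 2.31 to 3.24% in the lowest tumour, Atf4wt/wt replicate 2, and from 4.30 to 5.45% in the highest, Atf4wt/wt replicate 4.

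The means were 3.79% ± 0.861 (SD, n = 4) and 3.89% ± 0.0219 (SD, n = 4). Atf4D/D was 0.108 points higher, which did not pass an exact two-sided permutation test (p = 0.6, with 0.0286 the smallest p that 70 assignments allow). The result turned on single tumours: without Atf4wt/wt replicate 4 the difference was 0.460 points (exact permutation p = 0.0286, there 1 of 35 assignments), and without Atf4wt/wt replicate 2 it was -0.242. As a share of melanoma barcodes of any depth, the means were 7.48% ± 2.44 in Atf4wt/wt and 6.52% ± 0.494 in Atf4D/D (SD, n = 4 each, exact permutation p = 0.571), a difference of the opposite sign.

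**Figure D1:**
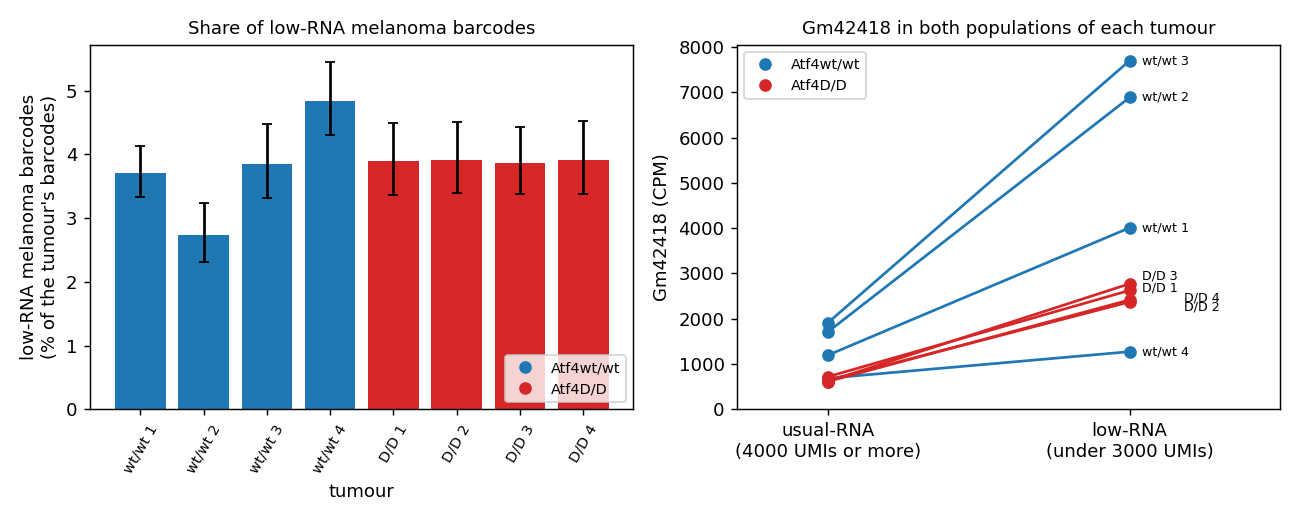
Left, low-RNA melanoma barcodes as a percentage of all barcodes of each tumour (bars, with Wilson 95% intervals), which ranged from 2.74% to 4.84% in Atf4wt/wt and from 3.87% to 3.92% in Atf4D/D. Right, Gm42418 in CPM in usual-RNA and low-RNA barcodes, with a line for each tumour: every line rises, and Atf4wt/wt replicates 1 to 3 stand above the other 5 tumours in both populations.

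The median low-RNA barcode had 1194, 1854, 1667 and 2096 UMIs in Atf4wt/wt and 1507, 1583, 1459 and 1421 UMIs in Atf4D/D tumours. The genotypes overlapped, and their means differed by -210.4 UMIs (Atf4D/D minus Atf4wt/wt, exact permutation p = 0.343). Summed over barcodes the low-RNA population held 235994 to 527732 UMIs a tumour and the usual-RNA population 21163493 to 47778922, so low-RNA values rest on far fewer molecules.

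At an equal number of UMIs the gap in genes per barcode was small. After each barcode was thinned at random to 500 UMIs, which no low-RNA barcode fell short of, low-RNA barcodes showed a median of 374, 371, 365, 363, 375, 375, 379 and 373 genes in the 8 tumours (Atf4wt/wt replicates 1 to 4, then Atf4D/D replicates 1 to 4). Usual-RNA barcodes showed 375, 371, 369, 375, 372, 378, 381 and 376. The ranges overlapped. The mean within-tumour difference was -2.75 genes ± 4.33 (SD, n = 8), lower in 6 of 8 tumours, and did not pass an exact permutation test that flipped the sign of each tumour's difference (two-sided, p = 0.109, with 0.0078 the smallest possible). Without Atf4D/D replicate 1 it was -3.57 (exact permutation p = 0.0312).

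Gm42418 and Lars2 were picked as markers of these barcodes from earlier results, so their levels are given as a description. Gm42418 is a long noncoding RNA gene (GRCm38, chr17:39846958-39848788, plus strand) that overlaps AY036118 on the other strand, in a stretch known for ribosomal RNA sequence. It stood at 4008, 6884, 7697 and 1273 CPM in low-RNA barcodes of Atf4wt/wt replicates 1 to 4 and at 2626, 2371, 2773 and 2416 CPM in Atf4D/D replicates 1 to 4. In usual-RNA barcodes it stood at 1195, 1707, 1909 and 687 CPM and at 719, 643, 615 and 614 CPM.

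Gm42418 was thus higher in the low-RNA barcodes of all 8 tumours, by a fitted log2 fold change of 1.83 (SE 0.06), and the rise was smallest in Atf4wt/wt replicate 4. Atf4wt/wt replicates 1 to 3 were highest in both populations, and the low-RNA value of Atf4wt/wt replicate 4 lay below the usual-RNA values of replicates 2 and 3. At the level of single barcodes, the median share was 0.273% of UMIs in low-RNA and 0.0812% in usual-RNA barcodes, and 139 of 1611 low-RNA barcodes (8.63%) against 8 of 21418 usual-RNA barcodes had over 1%. Of these 139, 35, 32 and 54 came from Atf4wt/wt replicates 1 to 3 and 2 to 5 from each of the other tumours.

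High Gm42418 was not particular to these barcodes. Shallow melanoma barcodes outside the mt- limits held 4510 CPM of Gm42418 and 94.1 CPM of Lars2 where the mt- share was under 2%, and 3600.0 and 121 CPM where it was over 7.5%, against 3565 and 66.3 CPM over all low-RNA barcodes summed.

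Lars2 encodes the mitochondrial leucyl-tRNA synthetase (chr9:123366927-123462666, plus strand). It stood at 68.6 CPM ± 35.2 in low-RNA and 33.4 CPM ± 7.80 in usual-RNA barcodes (SD, n = 8 tumours) and was higher in 8 of 8 tumours, but its median per barcode was 0 UMIs in both, so it marks the sum and not the single barcode.

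The 5 melanoma genes, whose sum selected both populations, are likewise given as a description. Dct, the dopachrome tautomerase, stood at 7641 CPM ± 2023 in low-RNA and 5847 CPM ± 711 in usual-RNA barcodes (SD, n = 8) and was higher in 8 of 8 tumours. Pmel, the melanosome fibril protein, stood at 2609 CPM ± 961 and 3195 CPM ± 200.2 and was lower in 7 of 8, Atf4wt/wt replicate 4 being the exception at 4795 CPM. Tyrp1, Tyr and Mlana overlapped between the populations, with log2 fold changes of 0.05, 0.18 and -0.04. Among the mt- genes, which the rule bounded as a sum, mt-Atp6 stood at 10919.9 CPM in low-RNA and 14267 CPM in usual-RNA barcodes, mt-Co1 at 5895 and 6066 CPM, and mt-Nd4l at 298 and 226 CPM.

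The remaining genes were tested by summing counts per tumour and population and fitting edgeR's quasi-likelihood model with tumour as a block, with Benjamini-Hochberg adjustment over all genes and a call at adjusted p below 0.05. Of 11306 genes tested, 617 were higher (5.46%) and 1212 lower (10.7%) in low-RNA barcodes, together 16.2%. With a change over 2-fold as a second condition, 148 were higher (1.31%) and 33 lower (0.292%). Leaving out barcodes with host markers gave 534 higher (4.75%) and 1165 lower (10.4%), of which 78 and 29 were over 2-fold. The balance of directions depended on scaling: with library size alone in place of TMM the median of all genes moved from -0.01 to 0.09 (log2) and 1030 genes were higher (9.11%) and 767 lower (6.78%). For 66 genes (0.584%) every low-RNA value of the 8 tumours lay above every usual-RNA value, and for 295 genes (2.61%) below, which is the background for the statements on overlap that follow.

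The comparison group also mattered. Cell-cycle genes in melanoma barcodes did not change evenly with UMI count, so the fit was repeated, a choice made after seeing the data, against usual-RNA barcodes of 4000 to 8000 UMIs only (here and below, upper limits of UMI ranges are not included). There 371 of 8588 genes were higher (4.32%) and 512 lower (5.96%). Counts from that fit are given with the gene lists.

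Among the 12 largest increases named by the rule given below, Slc39a1 came next in log2 fold change after Lyz2, Cd74 and Fcer1g. Slc39a1 encodes a plasma membrane zinc importer (chr3:90248172-90253612, plus strand). It stood at 210.3, 127, 89.2 and 114 CPM in low-RNA barcodes of Atf4wt/wt and at 174, 165, 164 and 170.3 CPM in those of Atf4D/D tumours. Usual-RNA barcodes of the 8 tumours lay between 36.0 and 49.7 CPM, so the populations did not overlap. Its log2 fold change was 1.91 (SE 0.11, edgeR adjusted p = 1.55e-38), 1.93 without host-marker barcodes and 1.47 against barcodes of 4000 to 8000 UMIs.

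Gm26532, a long noncoding RNA gene that overlaps Mir24-2 on the same strand (chr8:84208920-84209609), was also separate. It stood at 25.7, 49.1, 70.6 and 128 CPM in low-RNA barcodes of Atf4wt/wt and 30.1, 76.5, 38.8 and 21.7 CPM in those of Atf4D/D tumours, and at 11.2 to 20.2 CPM in usual-RNA barcodes (log2 fold change 1.76, SE 0.17, edgeR adjusted p = 1.20e-18). Kdm6b, a histone H3K27 demethylase, stood at 78.6 CPM ± 22.5 and 43.1 CPM ± 2.90 without overlap. Lnpep, a membrane aminopeptidase, stood at 53.5 CPM ± 8.91 and 31.0 CPM ± 2.86, likewise without overlap (SD, n = 8). Bhlhe41, a clock-linked transcriptional repressor, stood at 219 CPM ± 65.6 and 109 CPM ± 14.2. The low-RNA value of Bhlhe41 in Atf4wt/wt replicate 4, 116 CPM, lay within the usual-RNA range. Gm2a, a lysosomal lipid-binding activator, stood at 62.9 CPM ± 25.3 and 32.7 CPM ± 3.50. All 6 of these genes stayed past the threshold without host-marker barcodes and against barcodes of 4000 to 8000 UMIs.

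Of 7 nuclear and rRNA-linked noncoding RNA genes tested, 3 were higher (Malat1, AY036118 and Gm26917), 0 lower and 4 not past the threshold, also without host-marker barcodes (3 of 6 higher) and against 4000 to 8000 UMIs (3 higher). Malat1, an abundant RNA kept in nuclear speckles, stood at 7746, 11148, 25829 and 12675 CPM in low-RNA barcodes of Atf4wt/wt and at 9192, 21440.3, 10568 and 7673 CPM in those of Atf4D/D tumours, against 5535 to 8277 CPM in usual-RNA barcodes. It was higher in 8 of 8 tumours (log2 fold change 0.88, SE 0.06, edgeR adjusted p = 3.10e-29), with some overlap, and the rise spanned both genotypes. AY036118 and Gm26917, which lie in the same stretch of chromosome 17 as Gm42418, had log2 fold changes of 1.29 (SE 0.12) and 1.26 (SE 0.14). Both were higher in 7 of 8 tumours and varied widely, Gm26917 from 51.5 to 684 CPM in low-RNA barcodes. Neat1, the scaffold RNA of paraspeckles, did not pass the test (340.0 CPM ± 66.8 against 374 CPM ± 51.3, SD, n = 8).

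Macrophage genes led the list of increases by size. Lyz2 stood at 268, 32.8, 40.9 and 320.3 CPM in low-RNA barcodes of Atf4wt/wt and 83.7, 407, 56.7 and 612 CPM in those of Atf4D/D tumours, against 0.738 to 16.8 CPM in usual-RNA barcodes (log2 fold change 5.13, SE 0.15, edgeR adjusted p = 4.98e-84). Without the 67 host-marker barcodes its log2 fold change was 2.28, a decrease that the choice of those barcodes favours, since Lyz2 is among the 39 markers that define them. Cd74, the MHC class II invariant chain, had 4.17 and then 2.55, and Fcer1g, an Fc receptor chain of myeloid cells, 3.36 and then 1.43. Of 9 genes of the macrophage list that were tested, 8 were higher and 0 lower, and without host-marker barcodes 4 of 5 tested were higher and 1 lower. C1qa, C1qb, C1qc and Cd68, and Col1a1, Col1a2 and Col3a1 among the called fibroblast genes, are also among the 39 markers. The choice of barcodes thus favours the drop in both lists. Tmsb4x, an actin-binding peptide abundant in immune cells, had 1.71 and then 0.60, and with a melanoma limit of 1% it stood at -0.13 and no longer passed the test. Lgmn, the lysosomal protease legumain, had 0.80 and then 0.15, which was not past the threshold. The fibroblast list had 6 of 9 tested genes higher, with Col1a1 at 48.1 CPM ± 39.0 against 19.0 CPM ± 17.0 (SD, n = 8), and 4 of 8 tested without host-marker barcodes. Against barcodes of 4000 to 8000 UMIs 4 macrophage and 3 fibroblast genes were higher.

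**Figure D2:**
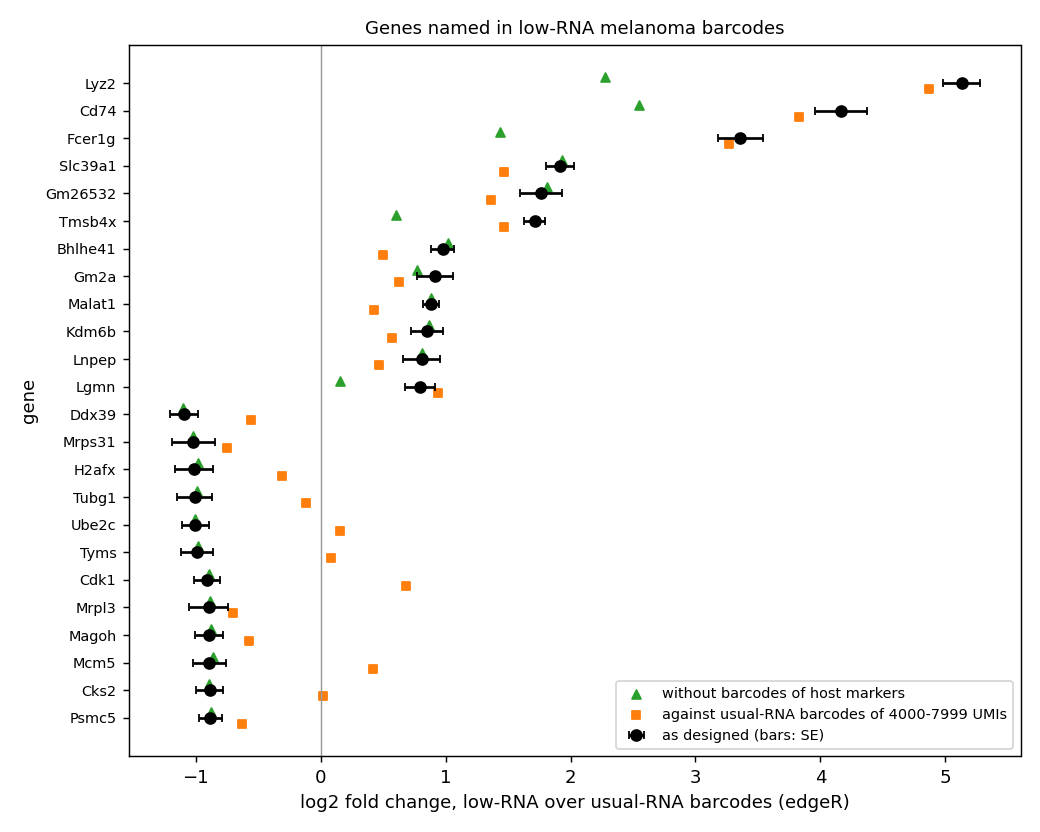
Log2 fold change, low-RNA over usual-RNA barcodes, for the 12 genes with the largest change in each direction, from the fit as designed (black points, bars are SE), without host-marker barcodes (green triangles) and against usual-RNA barcodes of 4000 to 8000 UMIs (orange squares). Lyz2 (itself one of the host markers), Cd74, Fcer1g, Tmsb4x and Lgmn shrink without host-marker barcodes, and Ube2c, Tyms, Cdk1, Mcm5 and Cks2 lie on the other side of 0 in the third fit.

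Cell-cycle genes were lower than in the usual-RNA barcodes taken as a whole. Of 24 genes of G2 and mitosis all 24 were lower, with a median log2 fold change of -0.66 against -0.01 for all genes. Of 22 S-phase genes 16 were lower, 6 did not pass and 0 were higher (median -0.64). With library size alone 20 and 13 were lower, and without host-marker barcodes 24 and 15. As a share of UMIs the G2 and mitosis list took 0.267, 0.1996, 0.152 and 0.174% in low-RNA barcodes of Atf4wt/wt and 0.271, 0.160, 0.193 and 0.263% in those of Atf4D/D tumours, against 0.262 to 0.335% in usual-RNA barcodes. It was lower in 8 of 8 tumours, although the ranges met. Ube2c, which helps the anaphase-promoting complex destroy cyclins, stood at 98.5 CPM ± 28.1 and 199.7 CPM ± 18.6 (SD, n = 8), Cdk1, the mitotic kinase, at 98.5 CPM ± 34.2 and 187 CPM ± 16.2, and Tyms, which makes thymidylate for DNA synthesis, at 53.6 CPM ± 17.4 and 109 CPM ± 10.2. None of these 3 overlapped between the populations.

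That direction depended on which barcodes served for comparison. Along the UMI scale and without host-marker barcodes, the G2 and mitosis list took 0.242% ± 0.0486 of UMIs at 500 to 1000 UMIs, 0.208% ± 0.0492 at 2000 to 3000, 0.206% ± 0.0510 at 3000 to 4000, 0.153% ± 0.0175 at 4000 to 8000 and 0.326% ± 0.0282 at 8000 or more (SD, n = 8 tumours). The list was thus level across 3000 UMIs, lowest at 4000 to 8000 and highest at the top. Against barcodes of 4000 to 8000 UMIs, 9 of the 24 genes were higher and 0 lower in low-RNA barcodes (median 0.44), and 9 of the 22 S-phase genes were higher and 0 lower (median 0.45). Against barcodes of 8000 UMIs or more, 24 and 18 were lower, where 5.73% of all genes tested were higher and 13.2% lower. Cdk1 had log2 fold changes of -0.91 in the first comparison and 0.68 (edgeR adjusted p = 1.99e-04) against barcodes of 4000 to 8000 UMIs. The low-RNA level of both lists thus lay between those of the lower and the upper part of the usual-RNA range.

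**Figure D3:**
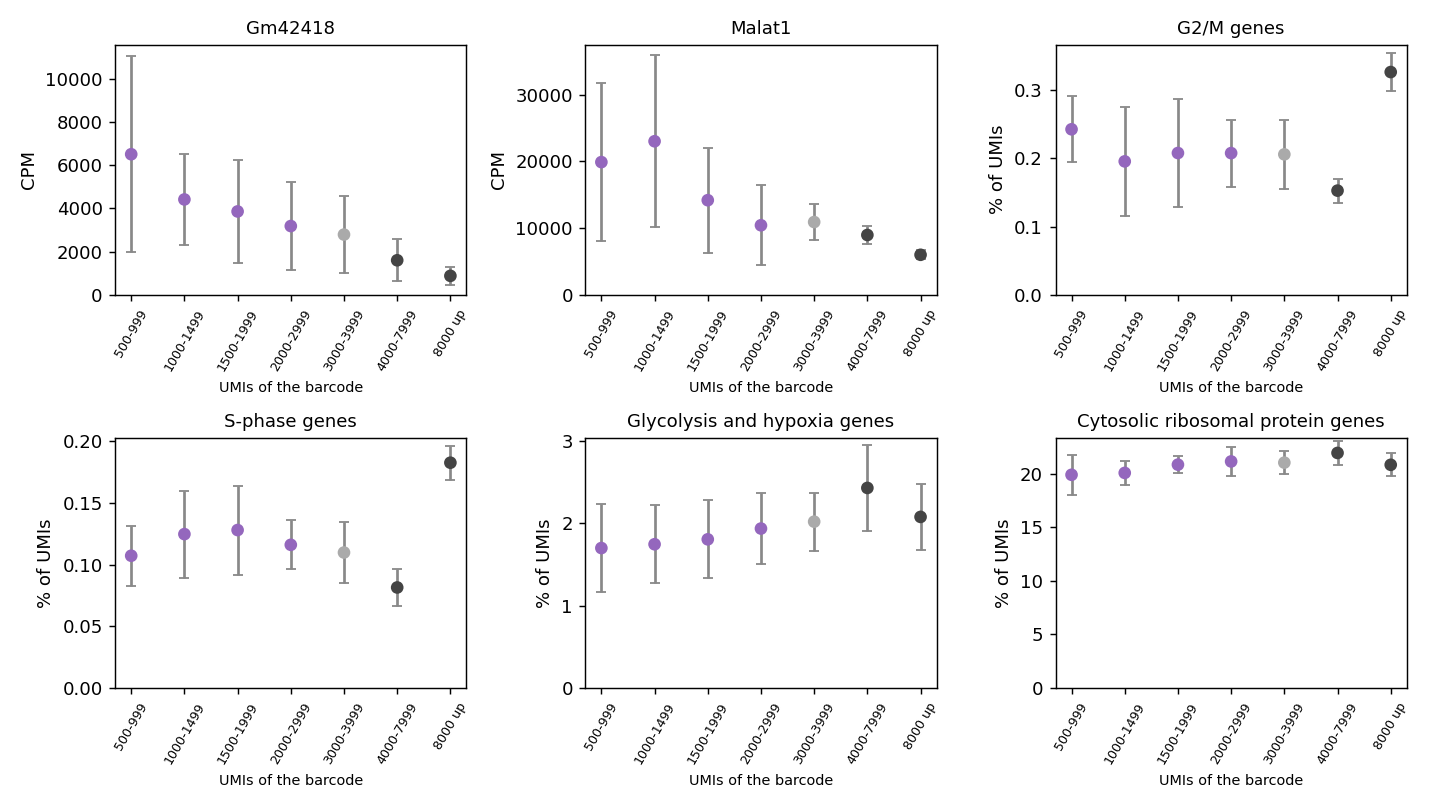
Level of Gm42418 and Malat1 (CPM) and of 4 gene lists (percent of UMIs) in melanoma barcodes grouped by UMI count, without host-marker barcodes; points are means and bars SD over 8 tumours, purple for low-RNA barcodes, pale grey for 3000 to 4000 UMIs and dark for usual-RNA barcodes. Gm42418 falls step by step from 6503 to 876 CPM, while the G2/M list is lowest at 4000 to 8000 UMIs (0.153%) and highest at 8000 or more (0.326%).

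Gm42418 itself changed steadily on the same scale, from 6503 CPM ± 4542 at 500 to 1000 UMIs over 4412 ± 2102, 3857 ± 2367, 3181 ± 2039 and 2786 ± 1770 CPM in the next 4 ranges to 1597 ± 975 at 4000 to 8000 and 876 ± 430.1 CPM at 8000 or more (SD, n = 8). The spread between tumours was wide throughout, and the difference within tumours across 3000 UMIs was not tested. Malat1 was highest at 1000 to 1500 UMIs (23009 CPM ± 12909) and lowest at 8000 or more (5992 CPM ± 686). These points share tumours and libraries and carry no test.

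Nuclear genes of the respiratory chain, which makes ATP in mitochondria, were more often lower than higher. Of 78 tested 43 were lower, 2 higher and 33 not past the threshold (median -0.22), and with library size alone 31 were lower and 5 higher (median -0.12). Atp5b, the catalytic subunit of ATP synthase, stood at 755, 856, 617 and 1003 CPM in low-RNA barcodes of Atf4wt/wt and at 864, 765, 892 and 801 CPM in those of Atf4D/D tumours, against 1157 to 1438 CPM in usual-RNA barcodes (log2 fold change -0.68, SE 0.07, edgeR adjusted p = 2.14e-18). The populations did not overlap. Ndufa3 and Ndufa6 were the 2 higher genes. Without host-marker barcodes 39 were lower and 2 higher. Against barcodes of 4000 to 8000 UMIs 17 were lower and 0 higher.

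Translation genes were in part lower. Of 18 translation factors 9 were lower and 0 higher (median -0.16), as also without host-marker barcodes and against barcodes of 4000 to 8000 UMIs, but 6 were lower and 1 higher with library size alone (median -0.06), with Tpt1, a growth-linked protein, at 3305 CPM ± 277 against 4452 CPM ± 255.7 and the elongation factor Eef1a1 at 6552 CPM ± 557 against 7334 CPM ± 227 (SD, n = 8). Of 83 cytosolic ribosomal protein genes 34 were lower and 3 higher with a median of -0.11, but with library size alone 18 were lower and 12 higher with a median of 0.00, so their direction as a family followed the scaling. Without host-marker barcodes 29 were lower and 2 higher, and against barcodes of 4000 to 8000 UMIs 35 and 0. As a share of UMIs the family took 20.8% ± 0.918 in low-RNA and 20.97% ± 1.07 in usual-RNA barcodes. Rpl5 stood at 1184 CPM ± 225 and 1661 CPM ± 86.1, and Rpl32 at 7566 CPM ± 402 and 8359.6 CPM ± 678.

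Glycolysis and hypoxia genes moved in both directions. Of 24 tested 12 were lower, 5 higher and 7 not past the threshold (median -0.19), and without host-marker barcodes 11 were lower and 5 higher. The lower genes were Pfkp, Pgam1, Eno1, Tpi1, Pfkl, Pgk1, Pkm, Ldha, Aldoa, Gpi1 and Gapdh, enzymes of the glycolytic chain, together with the carbonic anhydrase Car9, itself a known hypoxia target. The higher genes were Hk2, Vegfa, Ndrg1, Ero1l and P4ha1, all known hypoxia targets, Hk2 also being the first enzyme of glycolysis. Pgk1 stood at 1699 CPM ± 377 against 2344 CPM ± 437, and Hk2 at 233 CPM ± 88.0 against 145 CPM ± 32.3 (SD, n = 8), higher in 8 of 8 tumours with overlapping ranges. Against barcodes of 4000 to 8000 UMIs 15 were lower and none of the 5 was called higher (Hk2 log2 fold change 0.16). The whole list took 2.43% ± 0.519 of UMIs at 4000 to 8000 UMIs, its highest level, and 1.70% ± 0.530 at 500 to 1000.

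Stress genes were mixed. Of 12 heat shock genes 7 were lower and 2 higher (median -0.31), with the chaperones Hsp90aa1 at 1718 CPM ± 263 against 2635 CPM ± 216 and Hspa8 at 1896 CPM ± 265 against 2623 CPM ± 212 (SD, n = 8), neither of which overlapped. The 2 higher genes were the inducible Hspa1a and Hspa1b, at 28 and 33 UMIs in all low-RNA barcodes together, and without host-marker barcodes neither was called, 6 of the list being lower there and 4 against barcodes of 4000 to 8000 UMIs. Of 18 chaperones and folding enzymes of the endoplasmic reticulum 3 were higher (Sel1l, Canx and P4hb) and 1 lower (Manf), with 4 and 1 without host-marker barcodes and 2 and 0 against barcodes of 4000 to 8000 UMIs. Canx stood at 629, 696, 818 and 705 CPM in low-RNA barcodes of Atf4wt/wt and 647, 805, 695 and 732 CPM in those of Atf4D/D tumours, above the 493 to 590.4 CPM of usual-RNA barcodes. Hspa5, the most abundant member, stood at 1448 CPM ± 652 and 1454 CPM ± 282 and did not pass the test.

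Of 25 genes known as ATF4 targets 5 were higher and 3 lower (median 0.04). Without host-marker barcodes 3 were higher and 3 lower, and against barcodes of 4000 to 8000 UMIs the balance turned, with 2 higher and 5 lower (median -0.19). With library size alone 8 were higher and 3 lower. The higher genes were Gdf15, Slc7a11, Cebpb, Atf3 and Slc7a5, and the lower genes were Asns, Phgdh and Psph, which make asparagine and serine. Phgdh stood at 274 CPM ± 123 against 407 CPM ± 84.8 and was lower in 8 of 8 tumours, and Slc7a11, the cystine importer, at 82.6 CPM ± 50.9 against 49.6 CPM ± 18.6 and was higher in 7 of 8 (SD, n = 8).

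In the fit as designed, the chromatin and immediate early genes called were all higher, and the splicing genes called were mostly lower. Of 22 chromatin and long-transcript genes 6 were higher and 0 lower (median 0.23), with 11 higher by library size alone (median 0.34), 4 without host-marker barcodes and 3 against barcodes of 4000 to 8000 UMIs, among them Dst, a cytoskeletal linker with a very long transcript, at 468 CPM ± 91.4 against 324 CPM ± 12.5, and Ankrd11, a chromatin regulator, at 456 CPM ± 56.9 against 392 CPM ± 21.5 (SD, n = 8). Of 18 immediate early genes 6 were higher and 0 lower (median 0.23), led by Btg2 and Egr1, while the most abundant members Jun and Fos did not pass. With library size alone 13 were higher (median 0.33), without host-marker barcodes 3 were higher, and against barcodes of 4000 to 8000 UMIs 2 were higher and 3 lower. Of 21 splicing and speckle genes 6 were lower and 1, the kinase Clk1, was higher (median -0.03), with library size alone 5 were lower and 4 higher, and against barcodes of 4000 to 8000 UMIs 3 were lower and 1 higher, with Srsf3 at 311 CPM ± 73.4 against 498 CPM ± 48.9.

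A minority of antigen-display and interferon genes were called, and the number varied with the setting. Over all genes, DESeq2 called 633 of 11306 higher and 723 lower. A melanoma limit of 1% gave 449 of 10877 higher and 1091 lower. Of 12 MHC class I genes 5 were higher (Psmb8, Tapbp, H2-K1, B2m and H2-D1) and 0 lower (median 0.50), and 2 were higher without host-marker barcodes, 6 with DESeq2 or with library size alone, 0 with a melanoma limit of 1% (median 0.05) and 0 against barcodes of 4000 to 8000 UMIs. B2m, the light chain of MHC class I, stood at 314 CPM ± 82.5 and 234 CPM ± 58.7 (SD, n = 8). Of 21 interferon-stimulated genes 6 were higher and 0 lower (median 0.36), and 6 were higher without host-marker barcodes, 7 with library size alone, 2 with DESeq2, and 2 higher and 1 lower against barcodes of 4000 to 8000 UMIs. Rsad2, an antiviral enzyme, stood at 81.5, 41.0, 74.3 and 294 CPM in low-RNA barcodes of Atf4wt/wt and at 53.6, 189.7, 2.98 and 14.5 CPM in those of Atf4D/D tumours, so that it was higher than in usual-RNA barcodes in 6 of 8 tumours and was highest in Atf4wt/wt replicate 4 and Atf4D/D replicate 2.

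The p53, lysosome and cytoskeleton lists had calls in both directions, and the other melanocyte genes had none in the fit as designed. Of 19 genes of the p53 and apoptosis list 6 were higher (Tnfrsf10b, Trp53inp1, Mdm2, Zmat3, Ccng1 and Cdkn1a, all p53 targets) and 3 lower, among them Trp53 and Bax. Without host-marker barcodes 5 were higher and 3 lower, and against barcodes of 4000 to 8000 UMIs 1 was higher and 1 lower. Of 21 lysosome genes 5 were higher, with Psap, the saposin precursor, at 409.9 CPM ± 64.8 against 289 CPM ± 37.6 (SD, n = 8) without overlap, and 1 was lower (Ctsz). Without host-marker barcodes 3 were higher, and against barcodes of 4000 to 8000 UMIs 2 were higher and 2 lower. Of 20 cytoskeleton genes 11 were lower, among them Actg1, Vim and several tubulins, and 2 higher, Tmsb4x and Actb, and against barcodes of 4000 to 8000 UMIs 5 were lower and 5 higher. Actb stood at 5790.2 CPM ± 1496 against 4417 CPM ± 452. Of 14 other melanocyte genes 0 passed in either direction (median 0.07), with library size alone 5 were higher (8 and 0 lower of the lysosome list, 6 and 1 of the p53 list, 3 and 7 of the cytoskeleton list), and against barcodes of 4000 to 8000 UMIs 2 were lower (median -0.07).

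**Figure D4:**
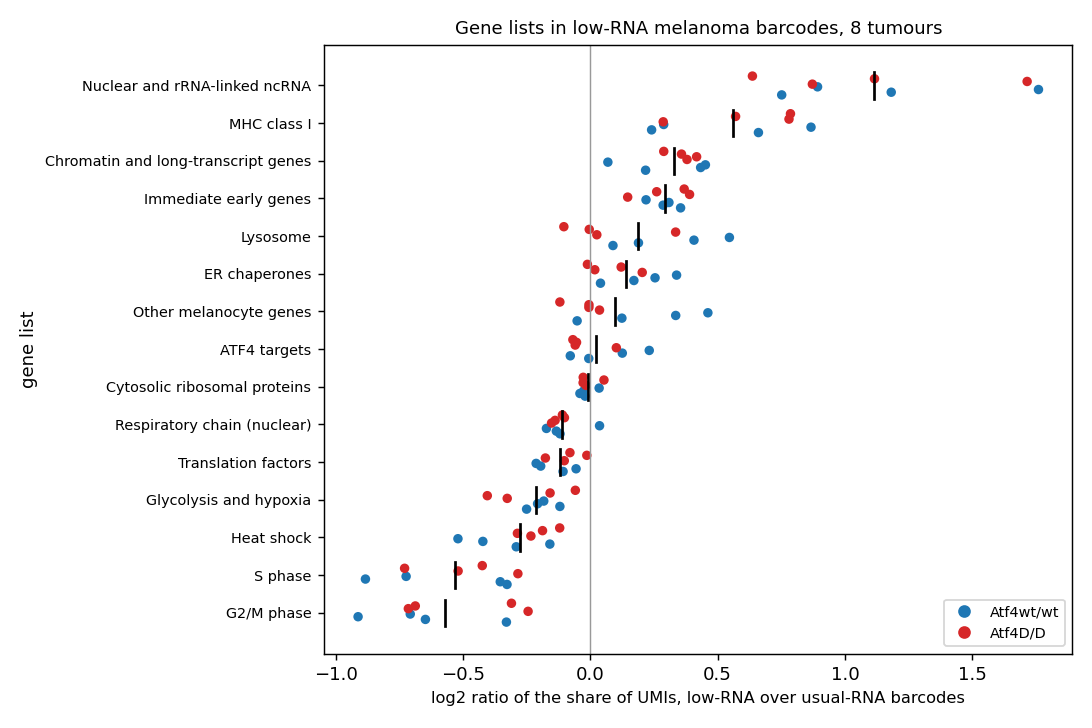
For 15 gene lists, log2 ratio of the share of UMIs in low-RNA over usual-RNA barcodes of the same tumour (1 point a tumour, blue Atf4wt/wt, red Atf4D/D; black bars are means over 8 tumours). The MHC class I, chromatin and immediate early lists lie above 0 in 8 of 8 tumours, as does the nuclear and rRNA-linked list, whose share includes the chosen markers Gm42418 and Lars2, and the glycolysis, translation factor, heat shock, S and G2/M lists lie below 0 in 8 of 8. Against usual-RNA barcodes of 4000 to 8000 UMIs alone the S and G2/M lists lay above 0 by their median log2 fold change (0.45 and 0.44).

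Among the genes with the largest decreases, several outside the cell cycle kept their direction against barcodes of 4000 to 8000 UMIs. Ddx39, an RNA helicase of mRNA export, stood at 51.5, 49.1, 81.8 and 144 CPM in low-RNA barcodes of Atf4wt/wt and 73.7, 42.8, 116 and 101 CPM in those of Atf4D/D tumours, against 150.0 to 189 CPM in usual-RNA barcodes (log2 fold change -1.10, SE 0.11, edgeR adjusted p = 3.91e-16). It stayed lower, at -0.56, against 4000 to 8000 UMIs. Psmc5, an ATPase of the proteasome, stood at 141 CPM ± 43.5 and 261 CPM ± 17.1, and Mrps31, a protein of the mitochondrial ribosome, at 25.3 CPM ± 9.66 and 50.2 CPM ± 1.86 (SD, n = 8). The fold changes of Psmc5 and Mrps31 in that narrower comparison were -0.63 and -0.75. Mrpl3, of the mitochondrial ribosome, and Magoh, of the exon junction complex, also stayed lower (-0.70 and -0.57), while H2afx and Tubg1 did not pass (-0.31 and -0.12).

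The median change was higher in genes with longer transcripts. With genes ranked by their longest annotated transcript (11298 of 11306 had a length in GENCODE M21), the median log2 fold change was -0.16 in the shortest quintile of genes (median length 1371 bases), then -0.10, -0.02 and 0.06, and 0.15 in the longest quintile (median length 6869 bases). In the shortest quintile 3.67% of genes were higher and 21.2% lower, and in the longest 9.25% were higher and 2.96% lower. With library size alone the medians ran from -0.06 to 0.25. This is a description across genes, which are not independent replicates.

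In low-RNA melanoma barcodes 1 gene differed with host genotype. Atf4 itself, intact in the injected cells, stood at 398 CPM ± 91.0 in Atf4wt/wt and 384 CPM ± 76.9 in Atf4D/D tumours (SD, n = 4 each; log2 difference -0.05, SE 0.19, edgeR adjusted p = 0.971). The injected cells were not deleted, so Atf4 in these barcodes does not check the genotype labels. Of 4406 genes tested with edgeR, 1 passed (0.0227%) and 268 had an unadjusted p below 0.05. DESeq2 called 0. Of the 19 tested ATF4 targets 0 were called (median log2 difference -0.21 against -0.00 for all genes).

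A genotype effect that differed between low-RNA and usual-RNA barcodes was found for 6 of 11937 genes (0.0503%) by edgeR's interaction test, and DESeq2 called 0. Of these, Cd74 (2.07), Spp1 (-1.87), Col1a1 (-1.67) and Col1a2 (-1.55) are genes of macrophages or fibroblasts, given as the log2 difference of the genotype effects. None of the 4 was past the threshold without host-marker barcodes. Col1a1 and Col1a2 are among the markers that define those barcodes, so the choice of barcodes favours the loss of both. The fold changes that remained are not given, so the lost calls do not show whether the differences shrank. Spp1, the secreted protein osteopontin, stood at 158, 16.9, 68.5 and 15.2 CPM by library size in low-RNA barcodes of Atf4wt/wt. In those of Atf4D/D tumours it stood at 24.6, 75.7, 3.14 and 15.1 CPM, with overlapping ranges. These values rest on 100 and 35 UMIs. In usual-RNA barcodes Spp1 stood at 8.08, 5.20, 14.5 and 8.74 CPM in Atf4wt/wt and 14.4, 18.2, 4.67 and 23.4 CPM in Atf4D/D. Cd74 had 116 low-RNA UMIs in Atf4wt/wt and 123 in Atf4D/D. Its usual-RNA values were 4.04, 4.72, 4.30 and 17.2 CPM in Atf4wt/wt and 2.47, 2.17, 1.11 and 3.84 CPM in Atf4D/D. Gm26917 (-0.97, SE 0.20, edgeR adjusted p = 0.00610) stayed past the threshold without host-marker barcodes (adjusted p = 0.0220) and did so in 6 of 11 alternative fits, and its low-RNA value in Atf4wt/wt replicate 2, 708 CPM by library size, stood far above the 54.3 to 202 CPM of the other 7 tumours. Cd63, a tetraspanin of melanosomes and exosomes, had -0.53 (SE 0.13, edgeR adjusted p = 0.0398), which was not past the threshold without host-marker barcodes (adjusted p = 0.106) and was in 3 of 11 alternative fits.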

How the data were processed

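The authors dissociated each tumour, loaded 1 library per tumour on a 10x Genomics 3′ kit (version 3 in the labels) and deposited filtered matrices of raw UMI counts for 31053 Ensembl genes, with Cell Ranger 3.1.0, Seurat 3.2.1 and GRCm38 named in the submitters' processing notes. Which library ran on which instrument run is not given in the sources used here. Barcode members, marker lists and gene lists were chosen with earlier results of these data known. Deposited counts were used unnormalized: barcodes were selected by the limits given, no doublet caller was run, and counts were summed per tumour and population, giving 235994 to 527732 UMIs for low-RNA sums. Replicates were separate tumours of 1 cell line.

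Sums were tested with edgeR 4.0.16 (R 4.3.3; TMM, filterByExpr, glmQLFit, Benjamini-Hochberg), with DESeq2 1.42.0 as an alternative, and the steps were tested on simulated counts. Levels are CPM after TMM scaling unless a share or library size is named. The mt- genes, the 5 melanoma genes, Gm42418 and Lars2 were left out of counts of calls. Shares and thinned gene numbers were tested by exact two-sided permutation. The genes named were the 12 largest changes in each direction with adjusted p under 0.05, at least 50 CPM in the higher population and 1 direction in all 8 tumours, the genotype and interaction calls, Atf4, and of each list the 3 most abundant and up to 2 most changed called members. Other genes named among a list's calls were chosen after their values were seen. Gene positions and lengths come from GENCODE M21 (GRCm38), which matched 30934 of 31053 identifiers. Host-marker barcodes and the range of 4000 to 8000 UMIs were chosen after seeing the data. Results for some genes that this rule names are not reported here.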

Additional observations from a re-analysis of the deposited data

Results flagged for a closer look

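Of 74 groups of 4 tumours checked for a tumour apart from the rest, 5 had one, and chance gives about 1 in 20. Host-marker barcodes were 0.763% of low-RNA barcodes in Atf4wt/wt replicate 2, against 4.02% in the nearest of the other Atf4wt/wt tumours. As log2 differences of CPM + 1, low-RNA minus usual-RNA, Lgmn stood at 1.35 in Atf4D/D replicate 2 (next 0.52), Tubg1 at -0.91 in Atf4D/D replicate 2 (next -1.75), Magoh at -0.12 in Atf4wt/wt replicate 4 (next -0.97) and Psmc5 at -0.31 in Atf4wt/wt replicate 4 (next -1.13).

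The genotype effect differed between low-RNA and usual-RNA barcodes for 6 genes in edgeR's interaction test, as log2 differences. Cd74 had 2.07 (adjusted p = 1.16e-07), Spp1 -1.87 (adjusted p = 1.24e-04), Col1a1 -1.67 (adjusted p = 5.97e-04), Col1a2 -1.55 (adjusted p = 0.0156), Gm26917 -0.97 (adjusted p = 0.00610) and Cd63 -0.53 (adjusted p = 0.0398). Without host-marker barcodes the adjusted p of Gm26917 was 0.0220, that of Cd63 was 0.106 and those of the other 4 were 0.972 or above. Col1a1 and Col1a2 are themselves host markers, so the choice of barcodes favours the loss of both.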

How the results depend on the processing

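Between low-RNA and usual-RNA barcodes 1829 of 11306 genes tested were called. They became 1080 of 9881 at 2 to 5% mt- and 883 of 8588 against 4000 to 8000 UMIs. With usual-RNA sums thinned to low-RNA totals they became 825 of 4172. Fewer genes were tested in these fits, so the counts of calls are not directly comparable. Leaving out 1 tumour gave 1484 to 2079. Without the tumour term (no replicate block) 1436 were called, and over 2-fold higher calls were 148, and 78 without host-marker barcodes. Of the 12 largest changes in each direction, 441 of 452 values under alternatives kept direction and call. These genes were chosen in the same data by call, size and a shared direction in every tumour. Fits that left out 1 tumour could thus hardly reverse them, and the pooled count does not measure robustness. The values that changed were 3 with a melanoma limit of 1%, 7 against 4000 to 8000 UMIs and 1 without host-marker barcodes. Tmsb4x reversed to -0.13 with a melanoma limit of 1%, where Fcer1g (0.90) and Lgmn (0.22) were not called. Against 4000 to 8000 UMIs Ube2c (0.16), Tyms (0.081), Cdk1 (0.68), Mcm5 (0.41) and Cks2 (0.016) reversed. The causes were not tested.

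The 1 genotype call became 0 with DESeq2, below 2000 UMIs and at 2 to 5% mt-, 28 with every gene of at least 1 count, and 0 to 3 with 1 tumour left out. The 6 interaction calls became 0 with DESeq2, 2 without host-marker barcodes and 1 to 15 with 1 tumour left out. The genotype difference in the share, 0.108 points, was 0.420 below 2000 UMIs and 0.373 at 2 to 5% mt- (exact permutation p = 0.257 and 0.114). It was -0.958 of melanoma barcodes, -0.0130 with a melanoma limit of 1%, and -0.242 to 0.460 with 1 tumour left out. Genes at 500 UMIs differed by -3.57 to -1.43 with 1 tumour left out.

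Same-numbered tumours deviated with correlations of 0.0922, -0.215, 0.0270 and -0.0652, so the numbers do not pair tumours across genotypes; a replicate block gave 1 genotype call and, for the share, an exact permutation p = 0.625. Low-RNA sums of 235994 to 527732 UMIs limit the genotype test to 4406 genes.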

Other observations

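A pair of gene families outside the lists had more genes lower than higher in low-RNA barcodes. They were chosen after their values were seen and not tested as sets. Of 37 proteasome subunit genes 32 were lower and 1 higher, with a median log2 fold change of -0.53 (-0.43 with library size alone). With library size alone 28 were lower and 1 higher, and without host-marker barcodes 32 and 0. Of 77 genes of the mitochondrial ribosome 40 were lower and 0 higher, with a median of -0.33, and with library size alone 27 were lower and 2 higher (-0.24). Without host-marker barcodes 38 were lower and 0 higher. The background over all genes was 10.7% lower and 5.46% higher.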
